A study of Mus musculus with 3 samples.

Results

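The genes described here are the 5 subunits of the transcription factor NF-κB (*Nfkb1*, *Nfkb2*, *Rel*, *Rela* and *Relb*) and 5 genes listed here under the name of inhibitors (*Nfkbia*, *Nfkbid*, *Nfkbie*, *Bcl3* and *Tnfaip3*). They were taken by name from the feature table, as 10 of its 31053 genes, and all 10 passed the minimum of 10 UMIs over the libraries compared. CD4+ T cells of C57BL/6 mouse spleen were enriched for naïve cells, sorted as 7AAD-CD3+CD4+ cells and analyzed by droplet single-cell RNA sequencing, with 1 library per condition. The unstimulated WT library (none) came from *Ift20* f/f cells in DPBS, at 0 h. The stimulated WT library (CD3/CD28) came from *Ift20* f/f cells that had anti-CD28 and anti-CD3 antibodies in the medium, each at 1 μg/mL, over 24 h, and the stimulated IFT20-KO library from *Ift20* f/f CD4 cre cells treated in the same way. All 3 libraries therefore carry the floxed allele, and the Cre, driven by *Cd4*, acts in developing T cells, so the loss of IFT20 precedes the culture. The study's methods describe the mice of the whole study as males of 5 to 10 weeks, and how many mice gave each library is not given in the sources used here.

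NF-κB is a dimer of Rel homology proteins that waits in the cytoplasm, bound by an IκB protein. In the canonical arm the T cell receptor and CD28, through PKCθ, switch on the IKK kinase, which marks IκB for destruction and frees dimers of p50 with RelA or c-Rel. In the noncanonical arm, members of the TNF receptor family stabilise the kinase NIK, and p100 is cut to p52, the partner of RelB. Several subunits and inhibitors are themselves NF-κB target genes, which makes feedback a textbook feature of the pathway, and c-Rel is known in T cells for its role at the *Il2* gene.

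Promoters are shown first, because the 10 genes include textbook targets of the factor that they form. The RefSeq promoter table (GRCm38.p6) held 13 promoters for 8 of the 10 genes and none for *Nfkb1* and *Relb*. The 250 bases before each start were searched on both strands for a form of the κB motif, GGG and TTCC with any 3 bases between them, and 9 of the 13 promoters held them, from *Nfkb2*, *Rel*, *Nfkbia*, *Nfkbid*, *Nfkbie* and *Tnfaip3*. Over all 32851 promoters of the table, 4.65% held the same letters. The stricter form, GGG and TTTCC with any 2 bases between them, whose matches are all matches of the first, was in 5 of the 13 and in 1.41% of all promoters. TGANTCA, the AP-1 motif, was in 3 of the 13, from *Nfkb2*, *Nfkbie* and *Tnfaip3*, and in 6.75% of all. TGACGTCA, the cyclic AMP response element, was in 1 promoter of *Nfkbid* and in 1.55% of all. A match is a description of the letters and not of binding, which was not measured.

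The 5 promoters below belong to the genes on which the comparisons turn, with matches of the first κB form and of TGANTCA on either strand in capitals and the base nearest the start last. They are the second listed promoter of *Nfkb2* at chr19:46305445-46305694 (plus strand), that of *Rel* at chr11:23770971-23771219 (minus), of *Nfkbia* at chr12:55492648-55492897 (minus), the second of *Nfkbid* at chr7:30422156-30422405 (plus) and that of *Bcl3* at chr7:19822771-19823005 (minus). Bases that GENCODE M21 places in a UTR were left out, 1 from *Rel* and 15 from *Bcl3*. The match lay 20 to 29 bases before the start in *Nfkbia* and 82 to 91 bases in *Rel*, whereas *Bcl3* held no match of any of the 4 motifs.
Nfkb2: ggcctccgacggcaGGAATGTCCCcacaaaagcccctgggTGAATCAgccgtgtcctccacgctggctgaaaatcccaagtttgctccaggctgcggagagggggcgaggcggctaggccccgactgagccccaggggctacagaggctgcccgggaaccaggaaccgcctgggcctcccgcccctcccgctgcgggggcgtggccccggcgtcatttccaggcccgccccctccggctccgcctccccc
Rel: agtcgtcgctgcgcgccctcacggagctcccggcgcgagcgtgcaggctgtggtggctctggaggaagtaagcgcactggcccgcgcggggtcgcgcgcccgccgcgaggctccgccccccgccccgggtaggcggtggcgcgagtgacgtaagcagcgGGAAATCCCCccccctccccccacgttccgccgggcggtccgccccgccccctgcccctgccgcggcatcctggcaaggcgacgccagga
Nfkbia: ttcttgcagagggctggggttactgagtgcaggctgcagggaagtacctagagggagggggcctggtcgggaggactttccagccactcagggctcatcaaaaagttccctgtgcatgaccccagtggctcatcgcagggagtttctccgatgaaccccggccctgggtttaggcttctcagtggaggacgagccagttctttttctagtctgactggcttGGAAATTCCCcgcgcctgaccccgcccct
Nfkbid: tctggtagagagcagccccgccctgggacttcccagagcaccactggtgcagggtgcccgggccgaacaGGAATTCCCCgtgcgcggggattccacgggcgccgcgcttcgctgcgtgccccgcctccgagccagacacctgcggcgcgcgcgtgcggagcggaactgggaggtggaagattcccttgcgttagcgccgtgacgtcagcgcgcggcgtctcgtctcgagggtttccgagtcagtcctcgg
Bcl3: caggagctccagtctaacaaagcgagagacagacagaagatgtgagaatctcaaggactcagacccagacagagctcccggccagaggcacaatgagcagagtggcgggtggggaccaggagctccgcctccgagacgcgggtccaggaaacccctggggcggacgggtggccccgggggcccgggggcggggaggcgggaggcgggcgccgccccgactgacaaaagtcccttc

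The libraries held 8031, 9903 and 13920 barcodes that passed the filter (over 200 genes detected, mitochondrial share below 15%), in the order none, CD3/CD28 WT and CD3/CD28 IFT20-KO, which left out 222, 417 and 12. A UMI stands for 1 captured RNA molecule, and the kept barcodes held 37133949, 116979076 and 106435143 of them, at medians of 4627, 12167 and 5014.5 per barcode. Barcodes with at least 4000 UMIs made up 66.9%, 76.8% and 52.2%, so the IFT20-KO library was the shallower of the stimulated pair in its barcodes. The deleted gene *Ift20* was at 64.4, 76.0 and 6.60 UMIs per 1000000 (CPM). *Cd3e*, part of the T cell receptor complex, had a UMI in 93.8%, 94.6% and 93.5% of barcodes. Of the 5 B cell markers, *Ms4a1* was at 0 to 1 UMI and *Cd79a* was found in 0.187% to 0.374% of barcodes, but the list summed to 286, 144 and 154 CPM because *Ighm* was found in 49.3% to 61.8% of barcodes. Of the 6 myeloid markers, *Lyz2* was at 0 to 1 UMI and the list's 76.6 to 81.1 CPM were nearly all *Cst3*. The part of these 2 lists in the differences below was not tested. Between 125 and 207 barcode sequences were shared by any 2 libraries. With 1 library per condition there is no replicate and no test. Each 95% interval, exact Poisson for a CPM and exact binomial for a ratio of CPM, covers counting error only.

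Stimulation was compared first, between the 2 WT libraries, to see which NF-κB genes differ after 24 h of CD3/CD28. The none library is of 0 h and the CD3/CD28 library of 24 h. Antibodies, time in culture and library thus cannot be told apart in any ratio for stimulation. Over all kept barcodes, each of the 5 subunits was higher in the CD3/CD28 library, and *Nfkb2* and *Relb*, the pair of the noncanonical arm, differed most. The inhibitors moved apart, since *Nfkbia*, *Nfkbid* and *Nfkbie* were higher and *Bcl3* was lower. A gene was called past the fold when its log2 ratio of CPM was at least 1 or at most -1. That held for 2 of the 10 genes on the higher side, where the share of all 13297 genes tested was 19.3%, and for 0 of 10 on the lower side, where it was 23%. The count past the fold is thus near the share of all genes, whereas the median of the 10 log2 ratios was 0.63 and that of all genes tested was -0.089, with 8 of the 10 above the latter.

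*Nfkb2*, which encodes p100 and its product p52 (ENSMUSG00000025225, chr19:46304320-46312385, plus strand), was at 24.2 CPM in none, 100.1 in CD3/CD28 WT and 103.6 in CD3/CD28 IFT20-KO cells. Its log2 ratio for stimulation was 2.05 (1.95 to 2.15), a 4.13-fold difference that was above 93.0% of all genes tested. Over all kept barcodes this was the widest difference among the 10 genes, and both stimulated libraries lay far above the unstimulated one. *Psd*, which overlaps it on the other strand, had 3 to 20 UMIs per library against at least 900 for *Nfkb2*.

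*Relb*, the partner of p52 (ENSMUSG00000002983, chr7:19606217-19629438, minus strand), was at 38.1, 92.0 and 94.4 CPM in the same order. The log2 ratio for stimulation was 1.27 (1.19 to 1.35). As for *Nfkb2*, the 2 stimulated libraries were close to each other.

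*Rel*, which encodes c-Rel (ENSMUSG00000020275, chr11:23736847-23770970, minus strand), was at 28.8, 56.8 and 80.7 CPM, so that all 3 libraries stood apart. Its log2 ratio for stimulation, 0.98 (0.89 to 1.07), was just short of the fold and its interval spanned it. *Rela*, which encodes the p65 activator (ENSMUSG00000024927, chr19:5637483-5648130, plus strand), was at 100.7, 157.0 and 154.7 CPM, with a log2 ratio of 0.64 (0.59 to 0.69). In barcodes under 4000 UMIs in both libraries, a range chosen after the data had been seen, the ratio of *Rela* was -0.22. The medians within this range were 2988 UMIs in none and 1828 in CD3/CD28 WT, so depth was not matched. *Nfkb1*, which encodes p105 and p50 (ENSMUSG00000028163, chr3:135584655-135691547, minus strand), was at 30.8, 47.2 and 52.9 CPM, with a log2 ratio of 0.62 (0.52 to 0.71). Over all kept barcodes *Rela* and *Nfkb1* thus differed by similar factors, 1.56 and 1.53, while the noncanonical pair differed by 4.13 and 2.42. *Rel*, also of the canonical arm, differed by 1.97. The order of the subunits depended on depth. In barcodes under 4000 UMIs the log2 ratio of *Rel* (2.19) was above those of *Nfkb2* (1.77) and *Relb* (1.31). When barcodes were thinned at random to 1400 UMIs, *Rel* (1.61) was above *Relb* (1.38) and below *Nfkb2* (1.96). At 4000 to 12000 UMIs *Nfkb2* (1.81) and *Relb* (1.38) were above *Rel* (1.07).

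**Figure D1:**
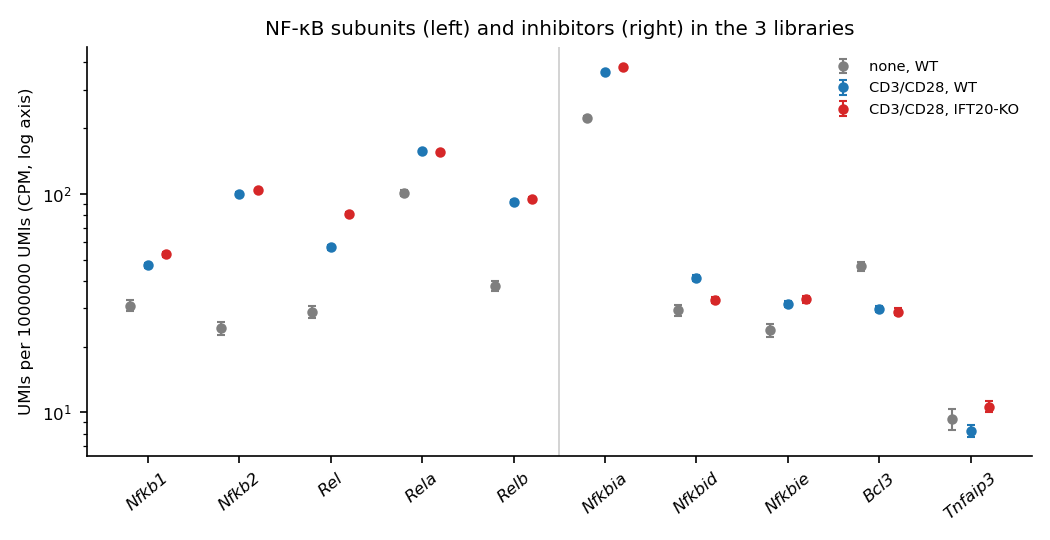
Level of each gene in the 3 libraries, as UMIs per 1000000 UMIs on a log axis, with exact Poisson intervals that cover counting error only. *Nfkb2* and *Relb* show the widest gap between none and CD3/CD28, *Bcl3* is the gene whose unstimulated level is clearly the highest of the 3, and *Rel* and *Nfkbid* show the clearest gaps between the stimulated WT and IFT20-KO libraries.

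Among the inhibitors, *Nfkbia*, which encodes IκBα, the feedback inhibitor that carries dimers out of the nucleus (ENSMUSG00000021025, chr12:55489410-55492647, minus strand), was at 222, 363 and 383 CPM. Its log2 ratio for stimulation was 0.71 (0.68 to 0.74), but only 0.014 in barcodes under 4000 UMIs. *Nfkbid*, which encodes the nuclear protein IκBNS (ENSMUSG00000036931, chr7:30421732-30428746, plus strand), was at 29.3, 41.3 and 32.8 CPM, with a log2 ratio of 0.50 (0.40 to 0.59). The IFT20-KO library lay nearer to none than to CD3/CD28 WT for this gene, which held for no other gene of the 10 that was higher after stimulation. *Nfkbie*, which encodes IκBε (ENSMUSG00000023947, chr17:45555703-45563169, plus strand), was at 23.7, 31.2 and 32.9 CPM, with a log2 ratio of 0.40 (0.29 to 0.50).

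*Bcl3*, an IκB-like nuclear protein that binds p50 and p52 dimers (ENSMUSG00000053175, chr7:19808462-19822770, minus strand), was at 46.7, 29.8 and 28.9 CPM. Its log2 ratio for stimulation was -0.65 (-0.73 to -0.56), which made it the gene with the lowest ratio of the 10. The direction depended on which barcodes were counted. Among those of 4000 to 12000 UMIs in both libraries, a window chosen after the data had been seen, the ratio was 0.27. The medians within this window were 5189 UMIs in none and 9828 in CD3/CD28 WT, so depth was still unequal. Without scaling for depth the ratio of *Bcl3* was 0.70, below the median of all genes on that scale, 1.26. *Tnfaip3*, which encodes the ubiquitin editor A20 (ENSMUSG00000019850, chr10:19000910-19015657, minus strand), was at 9.29, 8.21 and 10.6 CPM, and its log2 ratio of -0.18 (-0.36 to 0.0027) did not differ from 0 beyond counting error. Its direction turned with the depth, at 0.37 after barcodes were thinned to 1400 UMIs and 1.09 in those under 4000 UMIs, so no direction can be given. Without scaling for depth the ratio of *Tnfaip3* was 1.17, also below the median of 1.26. Of the genes that overlap *Bcl3* on the other strand, *Gm16174* had 46 to 55 UMIs per library and *Gm16175* had 0.

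The makeup of the family shifted with these differences. *Rela* gave 45.2% (44.2% to 46.3%, exact Clopper-Pearson interval) of all subunit UMIs in none and 34.6% (34.2% to 35.1%) in CD3/CD28 WT cells, while *Nfkb2* went from 10.9% (10.2% to 11.6%) to 22.1% (21.7% to 22.4%). These shares compare UMIs, which are counted at 1 end of a transcript and not per length. Summed over the 5 genes, the subunits were at 223 and 453 CPM and the inhibitors at 331 and 473 CPM, so the ratio of inhibitor to subunit UMIs was 1.49 (1.45 to 1.53) in none and 1.04 (1.03 to 1.06) in CD3/CD28 WT cells. It was 1.00 (0.99 to 1.02) in the IFT20-KO library. This ratio compares UMIs of the genes listed under each name, and the activity of their proteins was not measured. *Nfkbia* alone gave 67.1%, 76.7% and 78.4% of inhibitor UMIs, and the share of *Bcl3* was 14.1% (13.5% to 14.7%) in none against 6.29% (6.09% to 6.49%) and 5.92% (5.71% to 6.12%) in the stimulated libraries.

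Shares of barcodes with a UMI carry the depth of a library as well as the level of a gene. *Nfkbia* had a UMI in 54.2%, 75.5% and 70.8% of barcodes, and after each barcode was thinned at random to 1400 UMIs in 25.05%, 31.8% and 34.9%. The 801 and 421 barcodes of none and CD3/CD28 WT with fewer UMIs were left out of the thinned shares, and none of the IFT20-KO library. *Rel* had a UMI in 11.8%, 41.4% and 40.2% of barcodes, and thinned in 3.57%, 9.89% and 14.4%. The order of the 2 stimulated libraries was thus opposite before and after thinning for *Rel*, and the CPM followed the thinned order. *Tnfaip3* was the gene found least often, in 3.96%, 7.74% and 7.03% of barcodes, and thinned in 1.24%, 1.57% and 2.30%. No cell type in the sort lacks these genes, so free or foreign RNA can be gauged only from markers of other cells, which did not give 1 level. *Cd79a* was found in 0.187% to 0.374% of barcodes, *Cd8b1*, a gene of CD8 T cells, in 6.80% to 10.8% and *Ighm* in 49.3% to 61.8%. The other CD8 T cell gene listed, *Cd8a*, was found in 0.0747% to 0.208%, so *Cd8b1* alone does not gauge CD8 T cells. The share of *Tnfaip3* was above those of *Cd79a* and *Cd8a* in all 3 libraries. It was below that of *Cd8b1* in none and within counting error of that in both stimulated libraries. The part of free RNA in the share of *Tnfaip3* was not tested.

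At equal depth, some genes were spread over cells less evenly than others. The variance of the thinned UMIs over their mean, which is close to 1 for counts spread evenly, was 1.34, 1.66 and 1.498 for *Nfkbia* and 1.40, 1.21 and 1.07 for *Nfkbid*. The 95th percentile over all genes with a mean of at least 0.01 thinned UMIs per barcode was 1.10, 1.25 and 1.15. Most of these genes had a lower mean than *Nfkbia*, and none were matched to a gene by mean. *Nfkbia* lay above it in every library, and *Nfkbid* and *Bcl3* (1.21) in none only, while *Rela*, at 0.996 to 1.04, was near even in all 3.

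**Figure D2:**
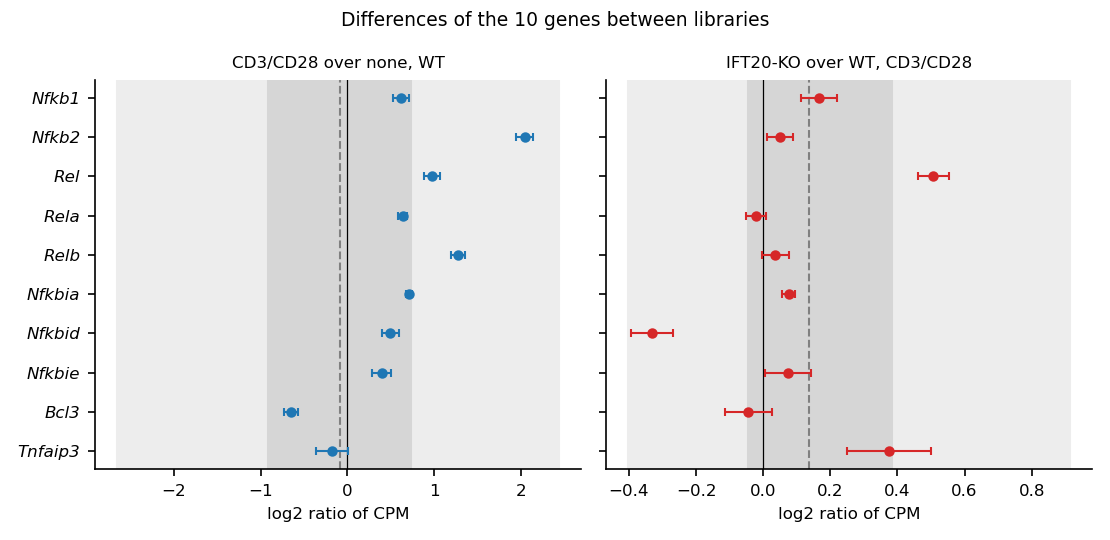
Log2 ratio of CPM of each gene for stimulation (left) and for IFT20-KO against WT (right, with a narrower axis), with exact binomial intervals. The dark band holds the middle 50% and the light band the middle 90% of all genes tested, and the dashed line is their median. *Nfkb2* lies at 2.05 near the right edge of the left band, and *Nfkbid* lies at -0.33 near the left edge of the right band.

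The second comparison, IFT20-KO against WT after CD3/CD28, asks whether these genes differ between the 2 stimulated libraries. It shares the CD3/CD28 WT library with the first. The loss of IFT20, the presence of Cre, the mice and the library cannot be told apart in any of its ratios. The fold was set lower here, at a log2 ratio of at least 0.5 or at most -0.5, and 1 of the 10 genes was past it on the higher side, *Rel*, against 17.2% of the 13504 genes tested. On the lower side it was 0 of 10 against 3.97%. The median of the 10 log2 ratios was 0.062 and that of all genes 0.14, and 3 of the 10 lay above the latter. At this fold the family stood close to the bulk of genes, and the 2 genes farthest from it in opposite directions were *Rel* and *Nfkbid*.

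*Rel*, at 56.8 CPM in WT and 80.7 CPM in IFT20-KO cells, had a log2 ratio of 0.51 (0.46 to 0.55). It differed between ranges of depth, at 0.30 in barcodes with at least 4000 UMIs, 0.32 in those of 4000 to 12000 UMIs and -0.17 in those under 4000 UMIs, so within neither depth range was *Rel* past the fold. *Tnfaip3*, at 8.21 and 10.6 CPM, had a ratio of 0.37 (0.25 to 0.50), which was 0.20 within 4000 to 12000 UMIs and -0.35 below 4000. The barcodes under 4000 UMIs numbered 2299 in WT and 6652 in IFT20-KO, with medians of 1828 and 2419 UMIs.

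Over all kept barcodes *Nfkbid* was the one gene of clearly lower level in the IFT20-KO library, at 41.3 CPM against 32.8 CPM. Its log2 ratio was -0.33 (-0.40 to -0.27), below which only 6.09% of all genes tested fell. It was -0.47 in barcodes of 4000 to 12000 UMIs and -0.72 in those under 4000, and over the alternatives tried it ranged from -0.96 to -0.30. *Bcl3*, at 29.8 and 28.9 CPM, had a ratio of -0.044 (-0.11 to 0.026) over all barcodes, but of -0.62 and -0.33 within the same 2 depth ranges. In those ranges 1 of the 10 genes each was past the fold on the lower side, *Bcl3* at 4000 to 12000 UMIs, where 5.09% of all genes tested were, and *Nfkbid* below 4000, where 12.4% were. Both genes kept their sign in each of the alternatives. Median depths at 4000 to 12000 UMIs were 9828 UMIs in WT and 9389 in IFT20-KO, nearer to each other than below 4000. In that range the ratio of *Bcl3* was lower than that of *Nfkbid*.

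For the other 6 genes the 2 stimulated libraries were close. The log2 ratio was 0.17 (0.11 to 0.22) for *Nfkb1*, 0.076 (0.057 to 0.096) for *Nfkbia*, 0.074 (0.0069 to 0.14) for *Nfkbie* and 0.050 (0.012 to 0.087) for *Nfkb2*. For *Relb*, at 0.037 (-0.0027 to 0.076), and for *Rela*, at -0.021 (-0.052 to 0.0090), the interval spanned 0. Scaling by median-ratio size factors placed *Nfkb2*, *Relb*, *Nfkbia* and *Nfkbie* below 0, and *Rela* was at 0.11 within 4000 to 12000 UMIs. *Nfkb1* was at 0.0051 with size factors and at -0.32 in barcodes under 4000 UMIs. The direction of these 6 cannot be given.

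Depth was therefore laid out gene by gene, with the kept barcodes of each library ordered by UMI count and divided into 5 equal groups. *Rel* was at 200.4 CPM in the shallowest and 50.6 CPM in the deepest group of CD3/CD28 WT cells, a log2 ratio of -1.98 (-2.11 to -1.86), and the other 4 groups lay between 49.9 and 64.0. In the IFT20-KO library it was at 158.8, 195.6, 94.4, 64.7 and 59.9 CPM from the shallowest to the deepest group. In none it was at 68.6 CPM in the shallowest and 24.6 to 26.6 CPM in the rest. The highest *Rel* levels were thus found in shallow barcodes in all 3 libraries.

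*Nfkb1*, *Nfkbid* and *Tnfaip3* followed *Rel*, with log2 ratios of the deepest over the shallowest group of -1.26, -1.19 and -2.02 in CD3/CD28 WT cells. *Rela*, at 93.8 CPM in the shallowest and 168.9 in the deepest group, went the other way with 0.85 (0.69 to 1.02), as did *Nfkbia* with 0.67 (0.57 to 0.77) and *Nfkb2* with 0.46 (0.28 to 0.64). *Relb* (-0.011) and *Nfkbie* (0.0054) differed by less than counting error. In the IFT20-KO library *Rela* (0.44) and *Nfkbia* (0.37) were again higher in the deepest group. In none they went the opposite way, at -0.26 (-0.44 to -0.083) for *Rela* and -0.31 (-0.43 to -0.19) for *Nfkbia*. *Rel*, *Nfkb1*, *Nfkbid*, *Tnfaip3* and *Bcl3* were relatively higher in the shallowest than in the deepest barcodes of all 3 libraries. *Rela* was higher in the deepest barcodes of the 2 stimulated libraries and lower in those of none.

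*Bcl3* had a shape of its own in CD3/CD28 WT cells, at 58.0 and 59.5 CPM in the 2 shallowest groups and 36.2, 22.6 and 18.8 CPM in the next 3. In none it was at 64.2 CPM in the shallowest and 41.7 CPM in the deepest group. The level of *Bcl3* in stimulated WT barcodes with medians of 1754 and 8446 UMIs thus lay within the range of the unstimulated groups, and the lower level was found in the barcodes with medians of 12169 UMIs and above. In the IFT20-KO library it was at 50.6 CPM in the shallowest and 20.5 CPM in the deepest group. The share of mitochondrial UMIs moved with depth as well, at 9.95% in the shallowest and 1.20% in the deepest group of CD3/CD28 WT, 5.16% and 1.10% in IFT20-KO and 4.79% and 2.31% in none, and its part in these differences was not tested.

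**Figure D3:**
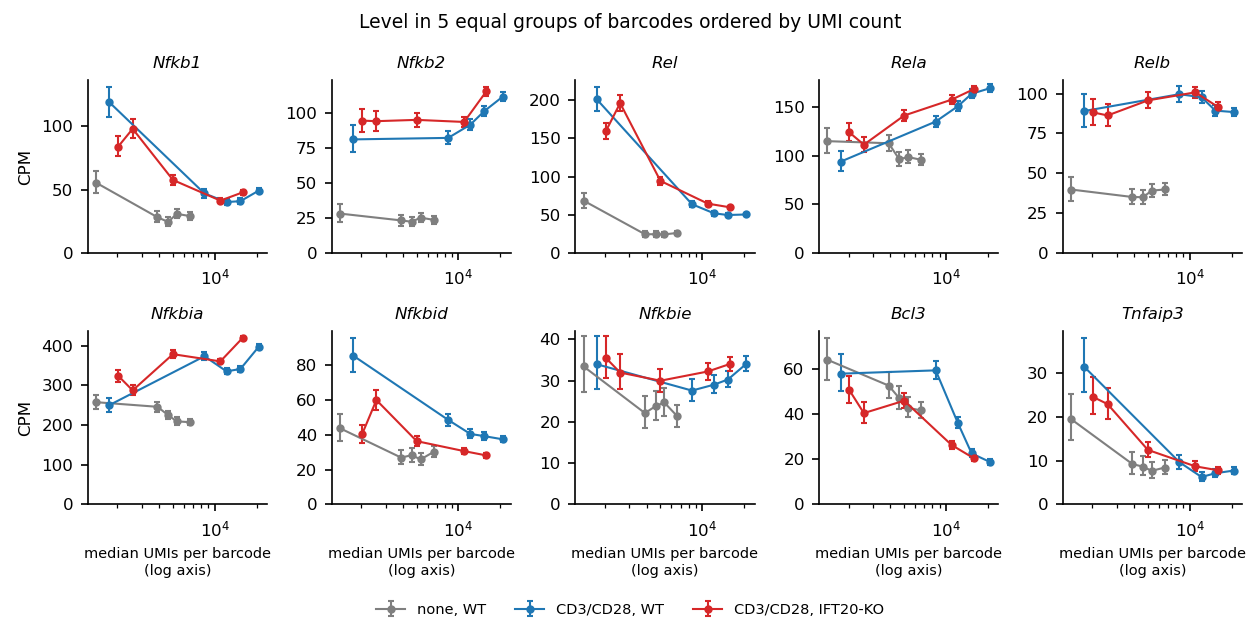
CPM of each gene (vertical axes from 0) against the median UMIs per barcode (log axis) of 5 equal groups of barcodes in each library, with exact Poisson intervals. From the shallowest to the deepest stimulated WT group, *Rel* goes from 200.4 to 50.6 CPM and *Rela* from 93.8 to 168.9, while *Bcl3* is at 58.0 and 59.5 CPM in the first 2 groups and at 18.8 CPM in the deepest.

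Cells within a library were then divided by 1 UMI or more of a marker gene that is not among the 10. In none, *Nr4a1*, an immediate early gene of T cell receptor signaling, had a UMI in 277 of 8031 barcodes (3.45%), at a median of 5275 UMIs against 4606.5 in the others. *Nfkbid* was at 195.1 CPM in them and 22.1 CPM in the others, a log2 ratio of 3.14 (2.94 to 3.33), and of 3.29 between the 25th and 75th percentile of depth. *Tnfaip3* (1.14), *Relb* (1.04), *Rel* (1.01), *Nfkb2* (0.90) and *Nfkbia* (0.88) were higher too, and *Nfkbie* (0.28) was the gene whose interval spanned 0. *Nfkbid* thus differed more between these cells of 1 unstimulated library than any of the 10 genes did between none and CD3/CD28.

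*Foxp3*, the factor of regulatory T cells, had a UMI in 343 barcodes of none (4.27%), at a median depth of 4583 UMIs against 4627.5. *Tnfaip3* was at 18.6 CPM with and 8.85 CPM without it, a log2 ratio of 1.07 (0.49 to 1.60). The ratios of *Relb*, *Nfkb2*, *Rel*, *Bcl3* and *Nfkb1* were 0.77, 0.72, 0.72, 0.71 and 0.68, and that of *Nfkbia* was 0.52. *Rela* (0.10), *Nfkbid* (0.31) and *Nfkbie* (0.26) had intervals that spanned 0. Between the 25th and 75th percentile of depth that of *Nfkbie* did not, at 0.89 (0.25 to 1.46). *Nfkb1*, *Nfkb2*, *Rel* and *Relb* were thus higher in both the *Foxp3* and the *Nr4a1* cells, *Rela* was higher beyond counting error in the *Nr4a1* cells (0.28, from 0.065 to 0.50), and the interval of *Nfkbid* spanned 0 in the *Foxp3* cells.

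In CD3/CD28 WT cells, *Il2*, the growth factor gene of activated T cells, had a UMI in 1631 of 9903 barcodes (16.5%), and these were deeper, at a median of 15481 UMIs against 11584. *Nfkbid* was at 58.3 CPM with and 36.6 CPM without *Il2*, a log2 ratio of 0.67 (0.58 to 0.76), and *Nfkb2* at 139.2 and 89.5 CPM, a ratio of 0.64 (0.58 to 0.70). *Rel*, *Tnfaip3* and *Nfkbia* had ratios of 0.45, 0.45 and 0.43, and *Rela*, *Nfkbie* and *Nfkb1* of 0.31, 0.29 and 0.20. *Bcl3* stood against them, at 13.4 CPM with and 34.2 CPM without *Il2*, a ratio of -1.35 (-1.52 to -1.19). Between the 25th and 75th percentile of depth it was -1.01 (-1.25 to -0.78).

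In the IFT20-KO library, where *Il2* had a UMI in 1901 of 13920 barcodes (13.7%), *Nfkb2* and *Nfkbid* had ratios of 0.70 and 0.54 and *Bcl3* of -0.69 (-0.85 to -0.53). The last was -0.18 (-0.42 to 0.059) between the 25th and 75th percentile of depth, where its interval spanned 0. The lower *Bcl3* of *Il2* cells was thus found in the middle range of depth in the WT library. Each middle range was taken within its own library, so the 2 are not of equal depth. Over all kept barcodes the medians were 12167 UMIs in WT and 5014.5 in IFT20-KO. In the IFT20-KO library the lower *Bcl3* was not beyond counting error in this range, and the difference between the libraries was not tested. Median depths there were 3903.5 UMIs with and 5510 without *Il2*.

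*Ccl4*, a chemokine gene, and *Il7r*, which is high in naïve cells, marked cells with other combinations. With *Ccl4*, in 1867 CD3/CD28 WT barcodes, *Nfkbid* was higher (0.57) and *Bcl3* lower (-0.72), as with *Il2*, but *Nfkbia* was slightly lower (-0.14, from -0.17 to -0.11). With *Il7r*, in 470 barcodes, *Bcl3* was at 57.7 CPM against 28.4 CPM, a ratio of 1.02 (0.85 to 1.19), and 0.97 (0.77 to 1.17) in the IFT20-KO library. *Rela* was lower with *Il7r*, by -0.44 in WT and -0.24 in IFT20-KO cells. *Bcl3* and *Rela* thus stood on opposite sides with this marker in both stimulated libraries. These ratios are over all kept barcodes, whose depth was not matched. *Bcl3* was also lower and *Rela* higher in the deepest than in the shallowest group of both libraries. The ratios with *Ccl4* were also taken in the middle range of depth of the WT library. They were 0.68 (0.55 to 0.81) for *Nfkbid*, -0.61 (-0.80 to -0.43) for *Bcl3* and -0.13 (-0.19 to -0.081) for *Nfkbia*. Median depths there were 12765.5 UMIs with and 12072 without *Ccl4*. For *Il7r* only ratios over all kept barcodes are given, and the part of depth in them is not described here.

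**Figure D4:**
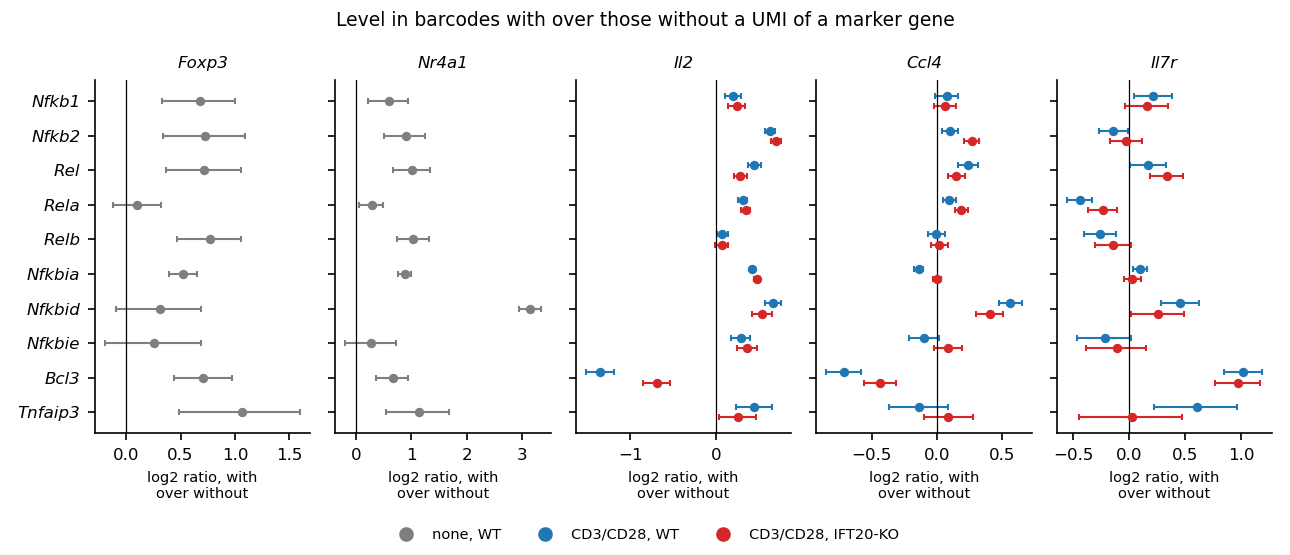
Log2 ratio of the CPM of each gene in barcodes with over those without a UMI of *Foxp3* or *Nr4a1* (none, grey) and of *Il2*, *Ccl4* or *Il7r* (CD3/CD28, WT blue and IFT20-KO red), with exact binomial intervals and a different horizontal axis in each panel. *Nfkbid* stands at 3.14 with *Nr4a1*, and *Bcl3* is the gene farthest to the left with *Il2* (-1.35 in WT) and farthest to the right with *Il7r* (1.02).

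Which other genes each of the 10 varied with was described over the 7604 CD3/CD28 WT cells with at least 4000 UMIs, by Pearson's r of log(1 + UMIs per 10000) against genes of at least 50 CPM. The cells share a library and differ in depth, most genes have few UMIs per cell, and no p is given. The 5 nearest genes of *Nfkbid* were *Nr4a1* (r = 0.37), *Dusp2* (0.30), *Egr1* (0.29), *Cd69* (0.28) and *Tnf* (0.27), which are immediate early or activation genes. Those of *Rel* were *Cd69* (0.22), *Nr4a1* (0.21), *Junb* (0.19), *Myc* (0.19) and *Dusp2* (0.18). *Cd69*, *Nr4a1* and *Dusp2* stood in both lists, although *Rel* and *Nfkbid* differed between IFT20-KO and WT in opposite directions.

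*Nfkbia* was nearest to *Pim1* (0.35), *Traf1* (0.31), *Junb* (0.29), *Nfkb2* (0.27) and *Grap* (0.25), and *Nfkb2* to *Cd82* (0.29), *Traf1* (0.28), *Nfkbia* (0.27), *Grap* (0.23) and *Cd200* (0.23). *Traf1*, an adaptor of TNF receptors, was among the 5 nearest genes of 5 of the 10, namely *Nfkb2*, *Relb*, *Nfkbia*, *Nfkbie* and *Tnfaip3*. *Relb* was nearest to *Nfkb2* (0.18), and *Nfkbie* (0.23) and *Tnfaip3* (0.25) to *Nfkbia*. These 5 genes thus had each other or *Traf1* as neighbours.

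*Bcl3* had the highest r of the 10 genes, with *Igtp* (0.43), *Emp3* (0.41), *Samhd1* (0.38), *Pim1* (0.38) and *Cish* (0.37). *Igtp* is an interferon-inducible GTPase and *Cish* a target of STAT5, and none of the 5 was among the nearest genes of another member except *Pim1*. *Rela* was nearest to *Eif1* (0.24), *Lcp2*, *Pdcd1*, *Cd5* and *Srgn*, and the highest r of *Nfkb1* was 0.10, with *Nfkb2*. In 7268 IFT20-KO cells with the same minimum of 4000 UMIs, whose depth above it was not matched, r was 0.31 for *Bcl3* with *Igtp* and 0.24 for *Nfkbid* with *Nr4a1*, and each of these was again the first in rank.

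Among themselves the 10 genes varied together only weakly. Over their 45 pairs r ran from -0.14 to 0.27 with a median of 0.061 in WT, and from -0.092 to 0.24 with a median of 0.051 in IFT20-KO cells. The highest pair in both was *Nfkb2* with *Nfkbia* and the lowest *Rela* with *Bcl3*.

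**Figure D5:**
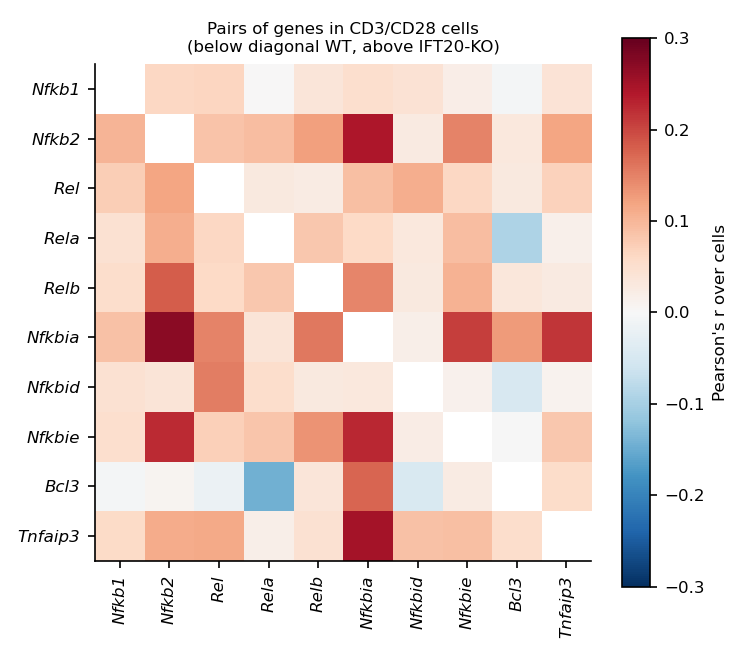
Pearson's r over cells with at least 4000 UMIs for each pair of the 10 genes, in CD3/CD28 WT (below the diagonal) and CD3/CD28 IFT20-KO cells (above it), as colour. *Nfkbia* is paired with *Nfkb2*, *Tnfaip3* and *Nfkbie* at 0.23 to 0.27 in WT, and *Rela* with *Bcl3* is the one clearly negative pair (-0.14).

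The rest of the pathway was described from lists grouped by role, which were chosen with earlier results of these data known. For stimulation, of 10 adaptors between the T cell receptor and IKK, 0 were past the fold on the higher and 3 on the lower side, against 19.3% and 23% of all genes. Among the latter, *Prkcq*, which encodes PKCθ, was at 248 CPM in none and 92.9 CPM in CD3/CD28 WT (log2 ratio -1.42), and *Tab1* at 12.6 and 6.25 CPM (-1.01). Of the 5 IKK genes, *Ikbke* (-1.94) and *Ikbkb* (-1.48), which encodes IKKβ, were past it on the lower side and none on the higher. The median log2 ratio was -0.21 for the adaptors and -0.95 for the IKK genes. All 5 subunits were above 0, whereas all 5 IKK genes and 6 of the 10 adaptors were below it. Of all 13297 genes tested, 7043 were below 0, so the count of adaptors was near that share. The IKK gene closest to 0 had an interval that spanned it (-0.16 to 0.11).

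Of the 10 genes of the noncanonical arm, *Tnfrsf4*, which encodes the receptor OX40, was at 23.0 and 360.6 CPM (3.97), while *Birc2* (-1.49), *Map3k14*, which encodes NIK (-1.38), and *Ltb* (-1.04) were past the fold on the lower side. Of 16 ubiquitin editors and negative regulators, *Tnip2*, an A20-binding protein, was higher (1.18) and *Nlrc3* (-2.84), *Tnfaip8l2* (-1.95) and *Itch* (-1.30) were lower. Of 4 genes listed beside the 5 inhibitors, *Nfkbib*, which encodes IκBβ, was at 55.8 and 124.6 CPM (1.16). *Ankrd42*, an ankyrin repeat gene with 1 and 14 UMIs, had an interval that spanned 0. *Nfkbib* was thus past the fold where the 5 inhibitors described above were not.

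Of 24 textbook target genes, 15 were past the fold on the higher side and 0 on the lower, against 19.3% and 23% of all genes. Their median log2 ratio was 1.60. The highest 4 were *Il2* (0.458 and 120.7 CPM, 8.04), *Irf4* (1.75 and 115.0 CPM, 6.04), *Tnfrsf9* (11.4 and 194.5 CPM, 4.09) and *Il2ra* (15.03 and 184.9 CPM, 3.62). The target list overlaps with genes known for T cell activation in general and holds genes chosen with these data known.

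For IFT20-KO against WT, *Il2* was at 120.7 CPM in WT and 68.7 CPM in IFT20-KO cells (-0.81), *Irf1* at 116.6 and 69.7 CPM (-0.74) and *Gadd45b* at 42.7 and 28.8 CPM (-0.57). They were the 3 of 24 targets past the fold on the lower side, where 3.97% of all genes were. On the higher side it was 1, *Cd83*, at 3.74 and 5.71 CPM, against 17.2% of all genes. *Otud7b*, a deubiquitinase of the noncanonical arm, was at 14.5 and 22.9 CPM (0.66) and *Ikbke* at 21.1 and 30.7 CPM (0.54). None of the 10 adaptors was past the fold in either direction. The median of the targets was -0.026, below the 0.14 of all genes. All these ratios are over all kept barcodes, whose depth was not matched between the libraries. *Il2* had a UMI in 16.5% of WT and 13.7% of IFT20-KO barcodes. Once barcodes were thinned at random to equal depth, the shares were 6.90% and 5.80%. The part of depth in the lower targets was not tested.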

How the data were processed

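The authors used Cell Ranger (version 3.1.0 in the file header) with mm10, and deposited raw UMI counts of each gene in each called barcode, not normalized. The methods name a 3′ kit and the labels a 5′ kit. The 10 genes, the pathway lists and the folds were chosen with earlier results of these data known. Barcodes passed with over 200 genes detected and a mitochondrial share below 15%, and doublets were not removed. UMIs were summed per library, scaled to CPM and compared as log2 ratios where a gene had 10 UMIs or more in the pair of libraries. A count of 0 was set to a floor of 3 in a ratio. Depth per library is given in the text, and intervals (95%) cover counting error only, so a difference within them was not detectable at this depth. Separate animals per library are not stated.

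Genes outside the 10 are named if, in a list, they are among the 4 highest or 4 lowest log2 ratios past the fold with at least 10 CPM in either library, or are among the 5 highest correlations with a gene of the 10. Marker genes of cell types and of the divisions of cells, among them *Foxp3*, *Ccl4* and *Ighm*, come from separate lists. *Ankrd42*, *Cd83*, *Psd*, *Gm16174* and *Gm16175* fall outside these rules and were named after their values were seen. Some genes of the lists are not reported here by name. Gene positions are those of GENCODE M21 (GRCm38) and promoters those of RefSeq. Alternatives were other scalings (size factors, per cell, mean of fractions, total without ribosomal and mitochondrial genes), other barcode filters, barcodes without markers of other cell types, thinning to 1400 UMIs, other folds and minimums, and windows of depth added after the data had been seen. Calculations used Python 3.11.15, numpy 2.4.6, scipy 1.17.1, pandas 2.3.3 and matplotlib 3.10.9 and were tested on simulated data.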

Additional observations from a re-analysis of the deposited data

How the results depend on the processing

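Counts past the fold were 2 higher and 0 lower of 10 for stimulation and 1 higher and 0 lower for IFT20-KO. For stimulation, 6 were higher and 1 lower at a log2 fold of 0.5 (30.9% and 36.8% of all genes), 9 higher by UMIs per cell (58.5%) and 6 higher in barcodes under 4000 UMIs (28.6%). After centring on the median gene, with size factors, by the mean of fractions and when thinned, 3 were higher (19.9% to 21.9%). The same count held with over 1000 genes and a mitochondrial share under 10%, and with at least 4000 UMIs (19.3% and 19.4%). At 4000 to 12000 UMIs it was 3 as well (14.8%). In each of these settings with 3, *Rel* was past the fold. For IFT20-KO, 0 were higher at a fold of 1, after centring on the median gene, with size factors, by UMIs per cell, by the mean of fractions, over all deposited barcodes, with at least 4000 UMIs, at 4000 to 12000 and under 4000 UMIs, where 2.98% to 16.9% of all genes were, and 2 when thinned (18.4%). There 7 were lower by UMIs per cell (48.2%) and 1 each at 4000 to 12000 (5.09%) and under 4000 UMIs (12.4%).

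Of the log2 ratios whose intervals excluded 0, these changed sign. By UMIs per cell, *Bcl3* was 0.70 for stimulation, and for IFT20-KO *Nfkb1* was -0.46, *Nfkb2* -0.58, *Nfkbia* -0.55, *Nfkbie* -0.55, *Rel* -0.12 and *Tnfaip3* -0.25. This scale keeps the difference in depth, and the median of all genes on it was 1.26 for stimulation and -0.49 for IFT20-KO. With size factors, *Nfkb2* was -0.11, *Nfkbia* -0.083 and *Nfkbie* -0.086 for IFT20-KO. At 4000 to 12000 UMIs *Bcl3* was 0.27 for stimulation. Under 4000 UMIs *Rela* was -0.22 for stimulation, and for IFT20-KO *Nfkb1* was -0.32, *Nfkbie* -0.024, *Rel* -0.17 and *Tnfaip3* -0.35. Of the 2 comparisons' ratios whose intervals spanned 0, *Tnfaip3* for stimulation was 1.17 by UMIs per cell, 0.026 by the mean of fractions, 0.37 when thinned and 1.09 under 4000 UMIs. For IFT20-KO *Relb* was -0.12 with size factors, -0.59 by UMIs per cell, -0.019 by the mean of fractions, -0.084 when thinned and -0.061 under 4000 UMIs, and *Rela* was 0.017 with at least 4000, 0.11 at 4000 to 12000 and 0.32 under 4000 UMIs. Where not stated, the cause was not tested. Leaving out barcodes with any of 16 markers of other cell types removed 2.44% to 2.93% of them and turned no sign. *Ighm*, *Cst3* and the CD8 T cell genes were not among these markers, so barcodes that held only those were kept. No paired analysis was possible because each group is 1 library and the labels carry no replicate numbers. No library could be left out, since each group holds 1.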

Other observations

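*Mki67* and *Tbx21* also divided the stimulated cells. In CD3/CD28 WT cells with a UMI of *Mki67*, a gene of cycling cells (447 of 9903 barcodes, median depth 16166 UMIs against 12060), *Bcl3* was at 38.0 CPM against 29.3 CPM without it, a log2 ratio of 0.38 (0.19 to 0.56), and *Nfkbie* was lower (-0.38, from -0.62 to -0.16). In the IFT20-KO library the ratio of *Bcl3* was 0.59 (0.44 to 0.74). With *Tbx21*, which encodes T-bet (890 barcodes of CD3/CD28 WT), *Tnfaip3* was at 11.2 CPM against 7.80 CPM (0.53, from 0.27 to 0.78) and *Nfkbia* at 442.7 CPM against 352.2 CPM (0.33). Cells with *Mki67* had more *Bcl3*, whereas cells with *Il2* had less. The ratios with *Mki67* and *Tbx21* are over all kept barcodes, whose depth was not matched. In none, *S100a4* was found in 32 barcodes, which held 5 to 67 UMIs of each of the 10 genes. *Nfkbid* was at 91.2 CPM in them against 29.0 CPM in the others, a log2 ratio of 1.65 (0.81 to 2.38), *Nfkb1* had a ratio of 1.37 (0.46 to 2.15), *Bcl3* of 1.16 (0.37 to 1.84) and *Nfkbia* of 0.88 (0.51 to 1.23). The intervals of *Rel*, *Rela* and *Tnfaip3* also excluded 0 and those of *Nfkb2*, *Relb* and *Nfkbie* did not. In the 12 of these barcodes between the 25th and 75th percentile of depth, only *Nfkb1* and *Bcl3* had intervals that excluded 0.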
